A study of Mus musculus with 24 samples.

Results

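The genes described here are 9 mouse genes of the interferon response and of antigen presentation, picked by name from the 47069 gene IDs counted in each library. Earlier results of these data were known when the genes were chosen. H2-K1, H2-D1 and B2m make the class I molecule that shows peptides on the cell surface, and Irf7, Ifit1, Ifit3, Isg15, Bst2 and Oasl2 are induced by interferon. All 9 were matched to 1 gene ID each and all 9 passed the filter on low counts in every comparison. Messenger RNA from the hippocampus of males, 2 to 4 months old, was sequenced in 18 libraries, in 6 groups of 3, and each library was made from pooled tissue of 3 mice. The study altered Kdm5c, an X-linked gene for an enzyme that removes methyl groups from lysine 4 of histone H3. In ifKO mice, labelled Kdm5c -/- (ifKO), untreated and on a C57BL/6J background, a floxed Kdm5c met CaMKIIα-creERT2, a tamoxifen-dependent Cre recombinase expressed in excitatory neurons of the forebrain. Their controls were untreated mice labelled control mice. In KO mice, labelled Kdm5c -/- (KO), Kdm5c was lost from every cell, on a mixed C57/129 background. KO mice were taken untreated or after 1 h of exploring a new box with objects (novelty), and so were their wild-type (WT) counterparts. The sources used here do not give whether control mice carried Cre or had tamoxifen. With this driver, cells of the ifKO hippocampus other than these neurons keep Kdm5c.

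Interferons are secreted proteins that bind receptors on nearby cells and, through Janus kinases, bring transcription factors to interferon-stimulated response elements in promoters. The genes so induced encode proteins that hinder viral replication, and class I genes are among them. In the healthy brain most neurons hold little class I protein, and microglia and endothelial cells are its better known sources.

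The response element repeats the letters GAAA at a fixed spacing, and its core was searched as GAAA, any 2 bases and GAAA again, on both strands from 250 bases before to 50 bases after each gene's start. It stood in promoters of 5 of the 9 genes, B2m, Ifit1, Ifit3, Isg15 and Bst2. Counted by promoter rather than by gene, it stood in 3.44% of 32851 mouse promoters of the same length. No match stood in this window for H2-K1, H2-D1, Irf7 and Oasl2. The matched stretches, from RefSeq on build GRCm38.p6, are shown on the strand of each gene because they are what these promoters share. Capitals mark the matches and lower case the 20 bases on either side and any bases between matches, and overlapping matches run together in Isg15 and Bst2.
B2m (chr2:122147528-122147577, plus strand): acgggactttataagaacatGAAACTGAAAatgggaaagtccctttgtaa
Ifit1 (chr19:34640765-34640833, plus strand): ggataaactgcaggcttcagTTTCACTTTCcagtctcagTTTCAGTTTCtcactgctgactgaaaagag
Ifit3 (chr19:34583353-34583436, plus strand): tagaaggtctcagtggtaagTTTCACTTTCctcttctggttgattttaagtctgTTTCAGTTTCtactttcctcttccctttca
Isg15 (chr4:156200855-156200916, minus strand): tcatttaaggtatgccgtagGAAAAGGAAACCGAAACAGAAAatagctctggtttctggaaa
Bst2 (chr8:71537567-71537622, minus strand): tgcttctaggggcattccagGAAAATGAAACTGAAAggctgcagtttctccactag
Ifit1 and Ifit3, neighbours on chromosome 19, each held 2 matches on the opposite strand. The core of the gamma-activated site, TTCNNNGAA with N for any base, was searched in the same way. It stood in the promoter of 1 of the 9 genes, Bst2, against 8.3% of the 32851 promoters.

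Counts assigned to genes ranged from 36.3 to 44 M per library in the inducible line and from 16 to 45.6 M in the KO line. The lines also differed in flowcell, in read layout (paired reads of 75 nt against single reads of 50 nt) and in strain background. Levels are given in CPM, counts per M counts assigned to genes after TMM scaling. Kdm5c was read in every library, at 63.4 to 70.6 CPM in the inducible line and 73.4 to 99.1 CPM in the KO line. Its log2 fold change was 0.04 ± 0.05 in ifKO over control, 0.01 ± 0.06 in untreated KO over WT and -0.24 ± 0.06 in KO over WT after novelty (SE, n = 3 each; edgeR adjusted p = 0.927, 0.983 and 0.108). A count over the whole gene does not check the deletion of part of it, so the genotype labels rest on the submitters' word. Markers of hippocampal neurons were present in all libraries, with the synaptic gene Snap25 at 1357 to 2166 CPM. A pair of libraries stood apart by 10 markers of choroid plexus, the secretory tissue of the ventricles: their summed level was 812 CPM in control library 1 and 1046 CPM in untreated KO library 2, against 149 to 257 CPM in the other 16. Libraries 2 of KO after novelty and 1 of WT after novelty lay furthest from their groups over all genes.

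H2-K1 and H2-D1 encode the heavy chains of the classical class I molecules, and B2m encodes beta-2-microglobulin, the light chain they share. In the inducible line all 3 were near one level in ifKO and in control library 1, and lower in control libraries 2 and 3. H2-K1 (ENSMUSG00000061232, chromosome 17, 33996017 to 34000347, GRCm38) had 33.0, 34.8 and 33.9 CPM in ifKO libraries 1, 2 and 3, against 36.9, 27.3 and 25.4 CPM in control libraries 1, 2 and 3. H2-D1 (ENSMUSG00000073411, chromosome 17, 35262730 to 35267499) had 40.6, 40.8 and 37.7 CPM in ifKO, against 41.4, 33.8 and 30.2 CPM in control. B2m (ENSMUSG00000060802, chromosome 2, 122147686 to 122153083) had 78.0, 77.0 and 78.2 CPM in ifKO, against 81.6, 67.2 and 62.2 CPM in control. Control library 1 was above every ifKO library for each of the 3 genes, so the groups overlapped, while the other controls were below all ifKO libraries. The log2 fold change of ifKO over control was 0.19 ± 0.11 for H2-K1, 0.18 ± 0.09 for H2-D1 and 0.15 ± 0.08 for B2m (± SE, n = 3 libraries per group). None passed edgeR's quasi-likelihood test, with Benjamini-Hochberg adjusted p of 0.828, 0.791 and 0.806 in that order. Without control library 1 the fold changes were 0.37 for H2-K1, 0.31 for H2-D1 and 0.27 for B2m, and H2-K1 (edgeR adjusted p = 0.0164) and B2m (adjusted p = 0.0269) passed. Without control library 3 they were 0.08, 0.08 and 0.06 in the same order, and none passed. In whole tissue, more cells of a type and more RNA per cell cannot be told apart. Reads shared among the many class I genes may have been split or dropped by the counting, so the heavy chain values carry that uncertainty.

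In the KO line the class I genes differed little between genotypes. H2-K1 stood at 21.8, 16.9 and 21.2 CPM in untreated KO, against 22.2, 22.9 and 21.2 CPM in untreated WT. B2m stood at 46.8, 46.0 and 47.6 CPM in untreated KO, against 50.4, 50.0 and 47.1 CPM in untreated WT. Untreated KO library 2 was the lowest of its group for both genes, and KO and WT overlapped for each. H2-D1 ranged from 19.9 to 25.1 CPM in untreated KO and from 24.6 to 27.5 CPM in untreated WT. The log2 fold changes of KO over WT were -0.14 ± 0.14 for H2-K1, -0.14 ± 0.10 for H2-D1 and -0.07 ± 0.09 for B2m (SE, n = 3 each), with edgeR adjusted p of 0.853, 0.803 and 0.886. After novelty H2-K1 had 23.1, 18.4 and 19.1 CPM in KO, against 20.8, 18.5 and 27.9 CPM in WT. B2m had 48.4, 40.5 and 41.2 CPM in KO after novelty, against 42.1, 48.0 and 52.8 CPM in WT. WT library 3 was the highest of its group for all 3 genes, and the fold changes were -0.14 ± 0.14 for H2-K1, 0.02 ± 0.11 for H2-D1 and -0.13 ± 0.09 for B2m, with edgeR adjusted p of 0.812 to 0.991.

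Irf7 encodes a transcription factor that is itself induced by interferon and drives more interferon production. Of the 9 genes it had the fold changes in ifKO and in untreated KO that lay furthest apart. Irf7 (ENSMUSG00000025498, chromosome 7, 141262706 to 141266481) had 3.26, 3.03 and 2.43 CPM in ifKO, against 3.12, 2.08 and 1.79 CPM in control. In untreated KO it had 1.51, 0.959 and 0.869 CPM, against 1.65, 1.63 and 1.74 CPM in untreated WT. After novelty it had 1.16, 1.03 and 1.19 CPM in KO, against 1.12, 1.02 and 2.25 CPM in WT. Every untreated KO library was below every untreated WT library, the 1 case among the 9 genes in this comparison where groups stood apart, against 9.36% of all tested genes lying apart in that direction. In the other comparisons between genotypes its groups overlapped. The log2 fold change was 0.33 ± 0.20 in ifKO, -0.54 ± 0.30 in untreated KO and -0.33 ± 0.32 in KO after novelty, with edgeR adjusted p of 0.841, 0.682 and 0.916. Without untreated KO library 1 the untreated value was -0.88 (edgeR adjusted p = 0.535), and without WT library 3 the value after novelty was positive at 0.08. These levels rest on few counts, 17 to 70 per library in the KO line and 76 to 137 in the inducible line. Irf7 also overlaps Phrf1 on the opposite strand, a gene with 34789 counts over all libraries against 1010 for Irf7, and the sources used here do not give the strand setting of the counting.

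Ifit1 and Ifit3 encode proteins with tetratricopeptide repeats that bind viral RNA or its partners, and Oasl2 encodes a relative of the 2′-5′-oligoadenylate synthetases. In the inducible line these 3 genes varied most between libraries of one group. Ifit1 (ENSMUSG00000034459, chromosome 19, 34640871 to 34650009) had 3.90, 5.53 and 4.28 CPM in ifKO, against 4.89, 2.93 and 2.64 CPM in control. Ifit3 (ENSMUSG00000074896, chromosome 19, 34583531 to 34588731) had 9.20, 13.4 and 12.1 CPM in ifKO, against 12.3, 7.57 and 7.08 CPM in control. Oasl2 (ENSMUSG00000029561, chromosome 5, 114896936 to 114912234) had 6.80, 9.36 and 7.50 CPM in ifKO, against 9.21, 5.77 and 4.57 CPM in control. Control library 1 lay within the range of ifKO for each, and control libraries 2 and 3 lay below it. The log2 fold change of ifKO over control was 0.40 ± 0.21 for Ifit1, 0.37 ± 0.19 for Ifit3 and 0.28 ± 0.21 for Oasl2 (SE, n = 3 each), with edgeR adjusted p of 0.809, 0.806 and 0.884. Without control library 1 the values were 0.72, 0.66 and 0.62 in the same order, with adjusted p of 0.11, 0.0799 and 0.149. Without control library 3 they were 0.22, 0.21 and 0.07. With no filter on low counts Ifit3 alone of the 9 genes passed, at 0.37 (edgeR adjusted p = 0.00489), where 398 of 28667 genes were called. Ifit3 shares much of its sequence with the neighbouring Ifit3b, so its reads may be split or dropped.

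In the KO line Ifit3 stood at 3.07, 3.06 and 3.14 CPM in untreated KO, against 3.54, 3.83 and 2.86 CPM in untreated WT. After novelty it stood at 3.56, 3.58 and 2.33 CPM in KO, against 1.95, 2.65 and 2.96 CPM in WT. The untreated KO libraries lay close together, inside the range of WT, and the groups also overlapped after novelty. The log2 fold change of KO over WT was -0.14 ± 0.19 untreated and 0.33 ± 0.20 after novelty (SE, n = 3 each; edgeR adjusted p = 0.892 and 0.748). Ifit1 ranged from 1.32 to 1.82 CPM in untreated KO and from 1.41 to 2.07 CPM in untreated WT. Oasl2 ranged from 2.97 to 3.74 CPM in untreated KO and from 2.93 to 3.96 CPM in untreated WT. Both genes had log2 fold changes of -0.04 in untreated KO, with SE of 0.30 for Ifit1 and 0.22 for Oasl2. After novelty the values were -0.17 ± 0.29 for Ifit1 and -0.23 ± 0.23 for Oasl2, and neither passed the edgeR test in either state, with adjusted p of 0.922 to 0.986.

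Isg15 encodes a small protein that is joined to other proteins in the manner of ubiquitin, and Bst2 encodes tetherin, which holds budding virus particles at the cell surface. Isg15 (ENSMUSG00000035692, chromosome 4, 156199424 to 156200818) had 1.43, 1.44 and 1.06 CPM in ifKO, against 1.32, 1.07 and 0.835 CPM in control. Bst2 (ENSMUSG00000046718, chromosome 8, 71534255 to 71537456) had 2.92, 2.95 and 2.88 CPM in ifKO, against 3.76, 2.35 and 2.13 CPM in control. Control library 1 was the highest of all 6 for Bst2, and lay within the range of ifKO for Isg15. The log2 fold changes of ifKO over control were 0.30 ± 0.22 for Isg15 and 0.10 ± 0.19 for Bst2 (SE, n = 3 each), with edgeR adjusted p of 0.881 and 0.968. Bst2 moved with the control library left out: it was 0.39 without library 1, 0.00 without library 2 and -0.07 without library 3. Isg15 stood at 0.757, 0.411 and 0.635 CPM in untreated KO, against 0.671, 0.748 and 0.457 CPM in untreated WT. After novelty it stood at 0.401, 0.486 and 0.347 CPM in KO, against 0.577, 0.479 and 0.986 CPM in WT. These are counts of 7 to 9 in KO libraries and of 15 to 21 in WT libraries after novelty, and WT library 2 lay inside the range of KO. The log2 fold change of Isg15 was 0.02 ± 0.34 untreated and -0.69 ± 0.38 after novelty, with edgeR adjusted p of 0.996 and 0.692, and without WT library 3 the value after novelty was -0.37. Bst2 ranged from 1.74 to 2.07 CPM in untreated KO and from 1.34 to 2.11 CPM in untreated WT, and its log2 fold change was 0.06 ± 0.20 (edgeR adjusted p = 0.961).

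**Figure D1:**
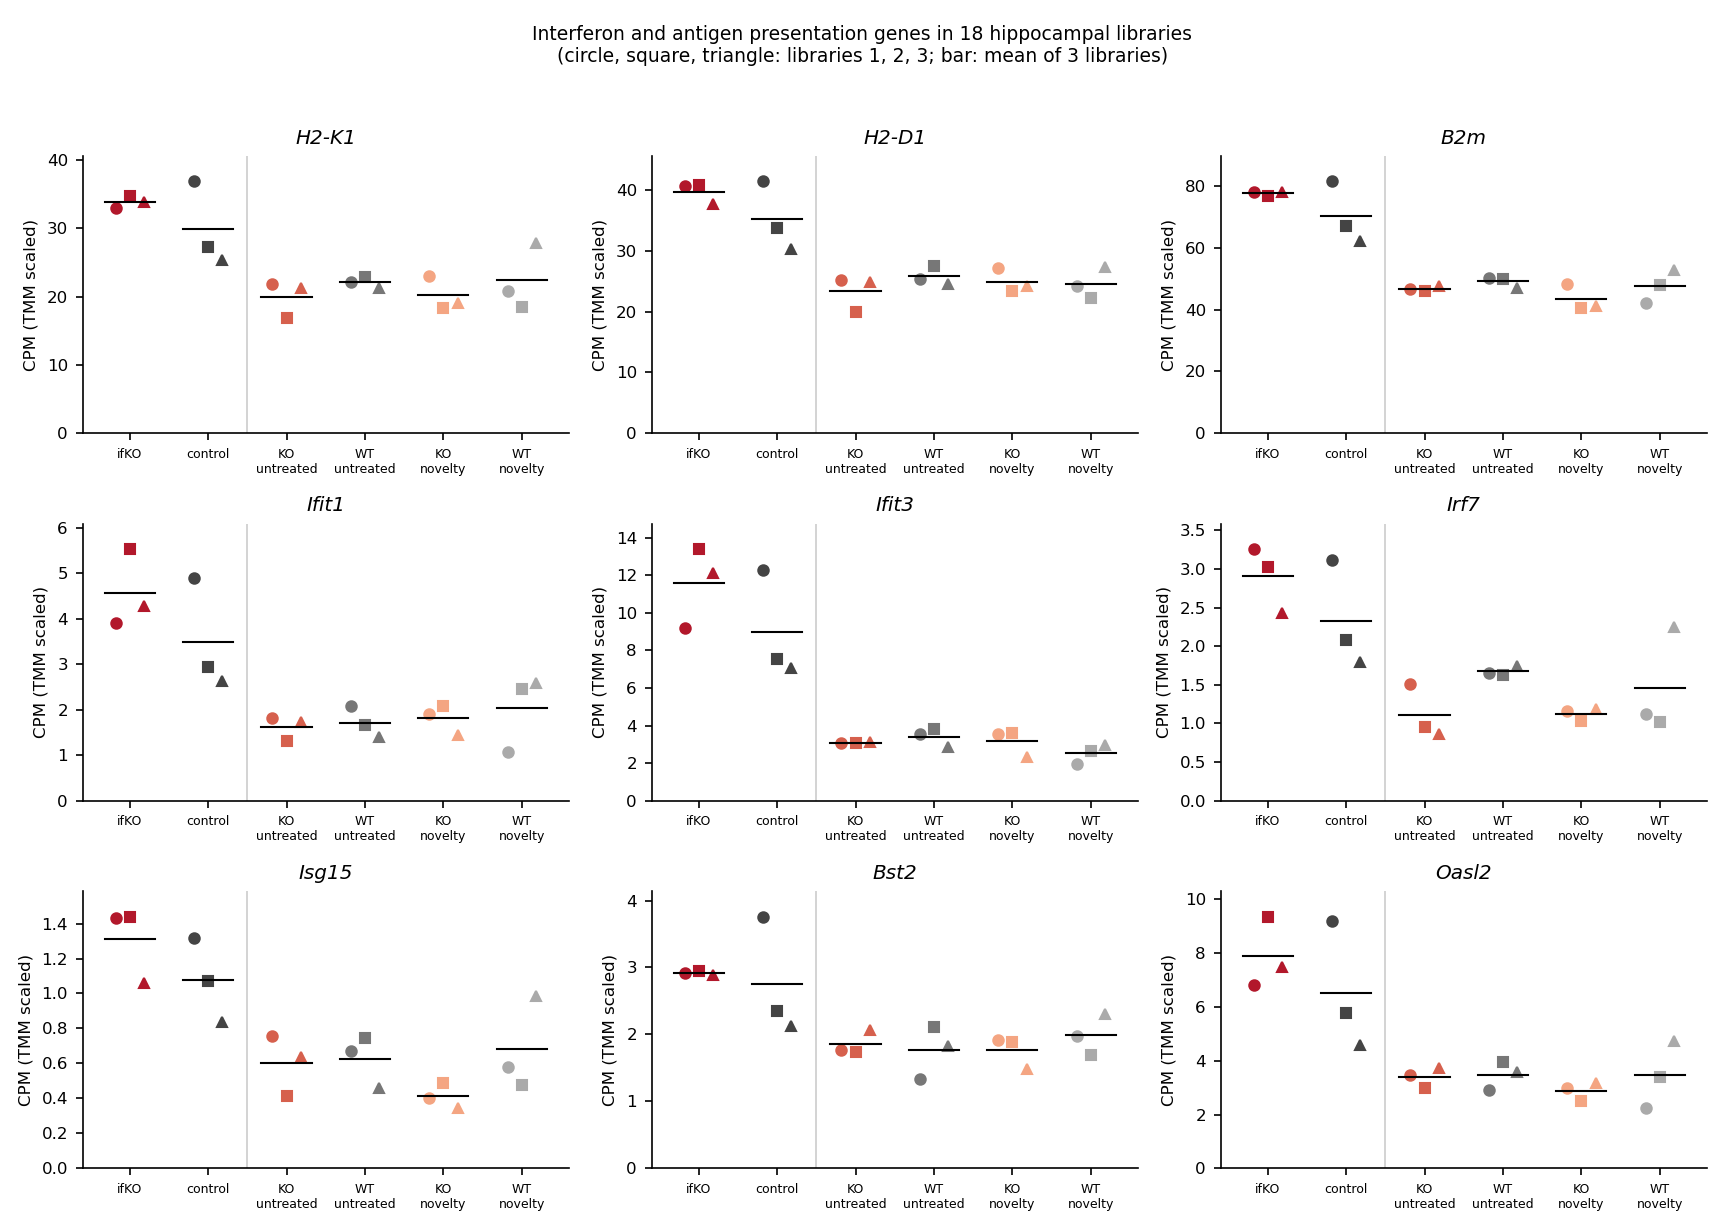
Each panel plots 1 gene, with the level in CPM on the vertical axis, the 6 groups on the horizontal axis, 1 point per library and a bar at the mean of 3 libraries. Control library 1 (circle) sits with or above the ifKO libraries in every panel, and B2m, H2-D1, Ifit1 and Ifit3 are higher in every library of the inducible line than in any of the KO line.

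Taken as a set, all 9 genes had a positive log2 fold change in ifKO over control, with a median of 0.28 and a range of 0.10 to 0.40, and 0 of 9 passed the edgeR test. Over all 17367 genes tested the median was 0.00, 50.6% were positive and 0.645% were called. The 9 genes moved together in these 6 libraries, with a median correlation of 0.89 between pairs. Counts of signs over the 9, here and below, are thus not 9 separate observations, and the genes were chosen with earlier results known. None of the 9 had an unadjusted p under 0.05 in edgeR, where 6.64% of all genes did. DESeq2 called 0 as well, with H2-D1 and B2m under 0.05 unadjusted. No gene of the 9 had groups that stood apart, while 6.12% of all genes were wholly higher and 5.83% wholly lower in ifKO. In untreated KO over untreated WT 2 of 9 were positive, Bst2 and Isg15, the median was -0.07 and 0 passed, where 1.24% of 16392 genes were called. After novelty 2 of 9 were positive in KO over WT, Ifit3 and H2-D1, the median was -0.16 and 0 passed, where 1.34% of genes were called. No gene of the 9 had groups that stood apart after novelty, where 6.59% of all genes were wholly higher and 4.66% wholly lower in KO. Neither comparison of the KO line had an unadjusted p under 0.05 for any of the 9 in edgeR or in DESeq2. Without WT novelty library 3, 6 of 9 were positive after novelty and the median was 0.04. With any other library left out the median after novelty was -0.25 (without WT novelty library 2) to -0.10 (without KO novelty library 3). In untreated KO the median was -0.16 without WT library 3, -0.13 without KO library 1, -0.11 without KO library 3 or WT library 1, -0.06 without WT library 2 and -0.04 without KO library 2. There 4 of 9 were positive without KO library 2 and 0 of 9 without KO library 3.

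**Figure D2:**
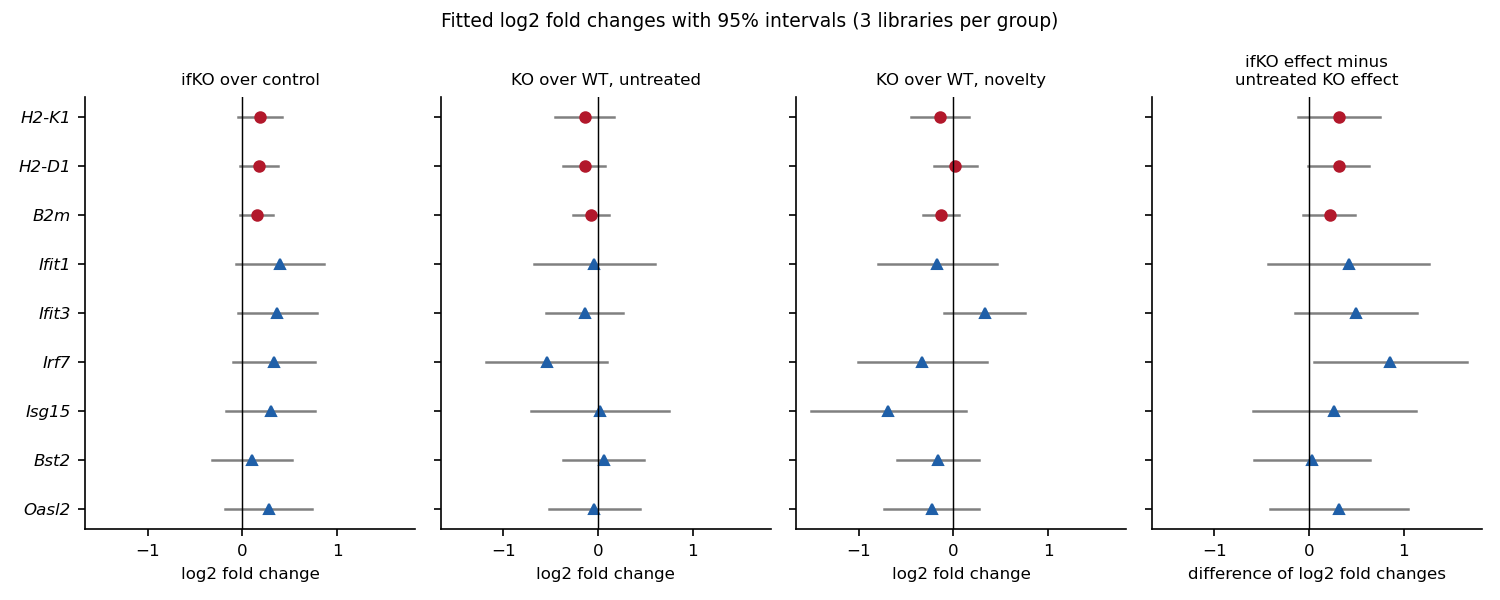
Points give the fitted log2 fold change of each gene and lines its 95% interval, for ifKO over control, KO over WT untreated, KO over WT after novelty, and the ifKO value minus the untreated KO value. All 9 points lie right of 0 in the first and last panels, and Irf7 in the last is the 1 interval there that does not reach 0.

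The effect in ifKO minus the effect in untreated KO was positive for 9 of 9 genes, with a median of 0.32, and 0 passed the edgeR test, where 0.114% of 17508 genes were called. Irf7 had the largest value, 0.86 ± 0.38 on the log2 scale, with an edgeR unadjusted p of 0.0383 and an adjusted p of 1. It was the 1 gene of the 9 under 0.05 unadjusted in edgeR, DESeq2 also had 1, and DESeq2 called 0. Leaving out 1 library at a time gave 0.70 to 1.21 for Irf7, with adjusted p of 0.902 to 1. The median of the 9 genes was 0.50 without control library 1 and 0.22 without control library 3. For H2-D1 the difference was 0.32 ± 0.15, for Ifit3 0.50 ± 0.31 and for Bst2 0.03 ± 0.29. Bst2 and Isg15 were positive in both mutants and the other 7 genes had opposite signs in ifKO and untreated KO. Some of the untreated KO values were smaller than their SE, so their signs are not settled. Examples are 0.06 ± 0.20 for Bst2, 0.02 ± 0.34 for Isg15, -0.04 ± 0.30 for Ifit1 and -0.04 ± 0.22 for Oasl2. None of these differences between the mutants passed the test.

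Control library 1 was the highest of the 3 controls for 9 of 9 genes. All 9 also followed one order in the controls, library 1 above 2 above 3, an order that 15.7% of 17508 genes had. The ratio of control library 1 to the mean of the other controls ran from 1.26 for B2m to 1.78 for Oasl2, while its median over all tested genes was 0.996. Control libraries 2 and 3 were both below every ifKO library for 8 of 9 genes, all but Isg15, and for 11.1% of all genes. Without control library 1, the median fold change of the 9 genes was 0.48 and 2 passed (H2-K1 and B2m), where 102 of 17616 genes were called. Without control library 3 the median was 0.08, 8 of 9 were positive and none passed, where 56 of 17637 genes were called. Without ifKO library 2 the median was 0.17.

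**Figure D3:**
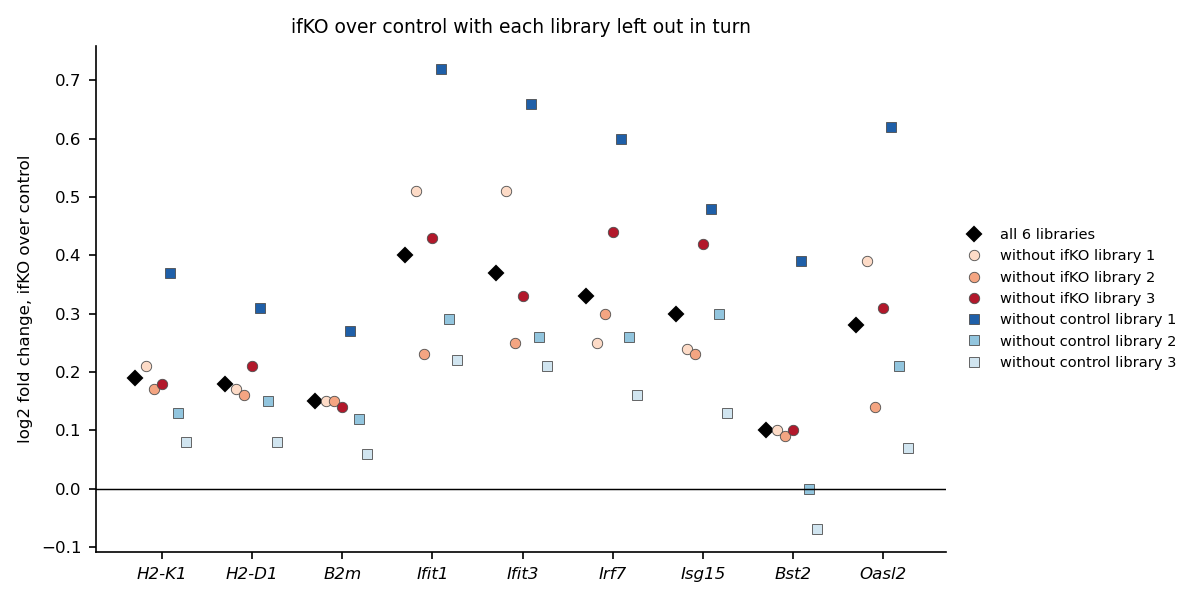
The vertical axis gives the log2 fold change of ifKO over control for each gene, with all 6 libraries (diamond) and with each library left out in turn. The value without control library 1 is the highest for all 9 genes, 0.27 for B2m to 0.72 for Ifit1, and the value without control library 3 is the lowest for all 9, down to -0.07 for Bst2.

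Single libraries also stood out in the KO line. WT novelty library 3 was the highest of its group for 9 of 9 genes, as it was for 21.2% of all tested genes, and the genes lay on average 0.30 above their group mean there on the log2 scale. Untreated KO library 2 was the lowest of its group for 8 of 9 genes, all but Irf7, as it was for 36.4% of all tested genes. The mean deviation of the 9 genes was 0.37 in control library 1, -0.26 in control library 3, -0.22 in WT novelty library 1 and -0.15 in untreated KO library 2. In the ifKO libraries it lay between -0.06 and 0.11.

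**Figure D4:**
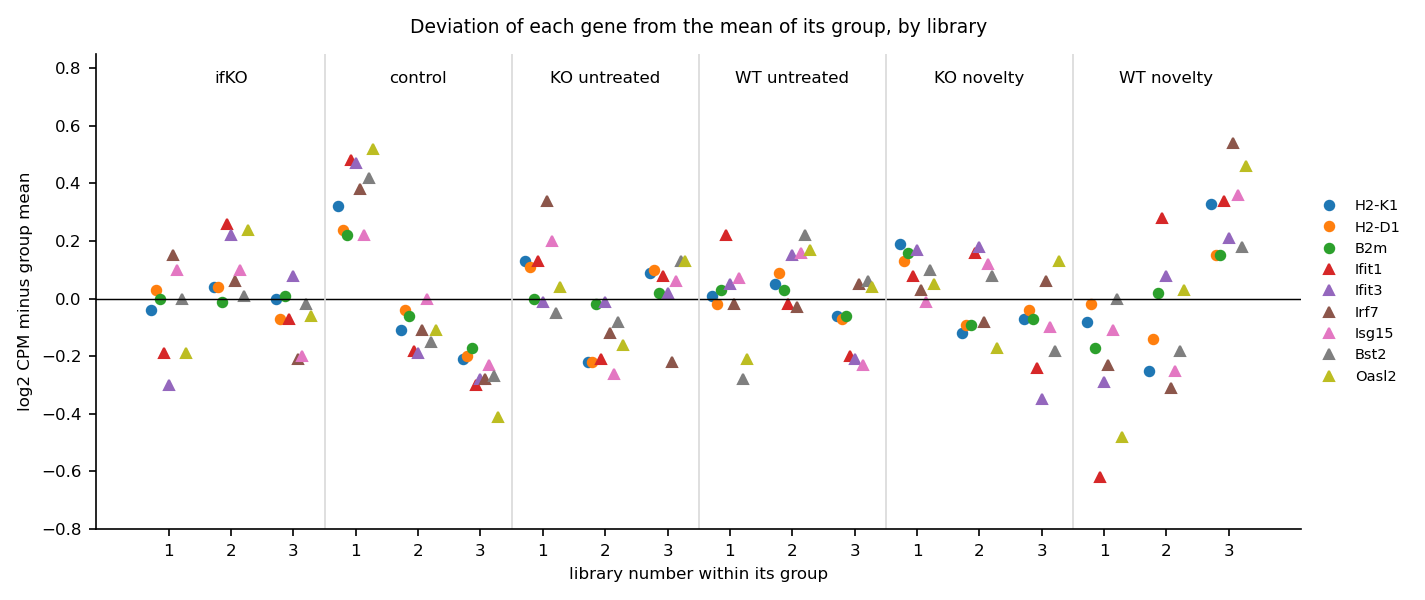
Each point is the log2 CPM of 1 gene in 1 library minus the mean of its group, with circles for the 3 class I genes and triangles for the 6 interferon-induced genes. All 9 points are above 0 in control library 1 and in WT novelty library 3, and all 9 are below 0 in control library 3.

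The spread of these genes between libraries of one group was mostly wider than that of genes at a like level. The SD of log2 CPM within groups of the inducible line was above the median of the 1000 genes nearest in mean level for 9 of 9, and in the KO line for 7 of 9, all but Isg15 and Bst2. The mean level was taken over all 18 libraries. All 9 genes stood lower in the KO line than in the inducible line, so the like genes were not matched to their level within each line. Ifit3 had an SD of 0.35 in the inducible line, where the like genes had a median of 0.12 and 99.3% of them lay below it. H2-K1 had 0.20 there, against a median of 0.07, and B2m had 0.14, against 0.05. For H2-K1 and B2m this spread lay mostly in the controls. In ifKO libraries 1, 2 and 3 H2-K1 deviated from its group mean by -0.04, 0.04 and 0.00 and B2m by 0.00, -0.01 and 0.01. In control library 1 these genes deviated by 0.32 and 0.22. Ifit3 spread in ifKO too, at -0.30, 0.22 and 0.08. In the KO line H2-K1 had an SD of 0.20, against a median of 0.11, and Ifit1 had 0.32, against 0.21.

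The 9 genes mostly moved together from library to library, less so in the KO line. Over the 18 libraries, the deviations from the group means had a Pearson correlation that was positive in 36 of 36 pairs of genes, with a median of 0.67 and a range of 0.37 to 0.93. The median was 0.89 in the 6 libraries of the inducible line, with a range of 0.52 to 0.99. In the 12 of the KO line it was 0.53, with a range of 0.03 (Ifit1 and Bst2) to 0.94. The same values for pairs of other genes are not given here. Pairs of the 3 class I genes had a median of 0.79 and pairs of the 6 interferon-induced genes one of 0.58. These correlations describe the libraries, which share tissue pools, depth and dissection across genes, and no test was made.

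Among 14545 other genes with a mean of at least 1 CPM, the 10 whose deviations were most like the mean of the 9 genes over the 18 libraries were Gbp3 (0.87), Chgb and Ifit3b (0.85 each), Gbp2 (0.84), AW112010 and H2-Q4 (0.83 each), Gbp5 and Ttc41 (0.82 each), and Gm43034 and 1700029J07Rik (0.81 each). Gbp2, Gbp3 and Gbp5 encode guanylate-binding proteins, GTPases induced by interferon, Ifit3b is the near copy of Ifit3, and H2-Q4 is another class I gene. Chgb encodes chromogranin B, a protein of secretory granules, and at a mean of 647 CPM it was the most abundant of the 10. The 12 libraries of the KO line are part of the 18 on which these 10 were picked, so high correlations there are no separate check. In those 12 the 10 genes had correlations of 0.76 to 0.90, and 3 of them, Chgb, Gbp2 and Gbp5, were among the closest 10. The closest there were Mtus1 (0.95) and Hsp90b1 (0.92), which were not among the 10 named above. For the 3 class I genes the closest were Frmd8 (0.87), Plxnb3 (0.86), Gm43034 (0.85), and Ctss and Ifit3b (0.84 each). Ctss encodes cathepsin S, a protease of microglia and other antigen-presenting cells. For the 6 interferon-induced genes the closest were Gbp3 (0.87), Gbp2 (0.86), Chgb (0.85), and 1700029J07Rik and AW112010 (0.84 each). In the KO line alone the closest were Hax1 (0.96) for the class I genes and Mtus1 (0.96) for the interferon-induced genes.

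Summed over the 9 genes, the level was 179, 188 and 180 CPM in ifKO, against 194, 150 and 137 CPM in control. The summed level of 15 microglia markers was 596, 617 and 601 CPM in ifKO, against 627, 567 and 523 CPM in control, so it had the same order of control libraries. The ifKO libraries also had the same order in both sums. In WT novelty libraries 1, 2 and 3 the microglia sum was 549, 534 and 534 CPM. Library 3, the highest there for the 9 genes, was not high for microglia markers. In KO novelty the microglia sum was 569, 475 and 559 CPM, in the same order as the 9 genes (111, 93.8 and 94.5 CPM). Untreated KO library 2 was the lowest of its group for both sums. Untreated WT library 2 was the highest of its group for the 9 genes but not for microglia markers. All 15 microglia markers had a positive log2 fold change in ifKO, with a median of 0.10, and none passed the edgeR test. Choroid plexus markers were at 198, 231 and 257 CPM in ifKO, against 812, 212 and 247 CPM in control. Their highest library, untreated KO library 2, was low for the 9 genes, and WT novelty library 3, the highest of its group for the 9 genes, had 184 CPM of choroid plexus markers, within the range of other libraries. Blood markers had 38.4, 29.1 and 26.8 CPM in control libraries 1, 2 and 3, and 5 markers of perivascular macrophages had 4.39, 3.14 and 2.85 CPM there, again with library 1 highest. Library 1 was also the highest control for oligodendrocyte markers, at 4111, 3256 and 3403 CPM in control libraries 1, 2 and 3, for astrocyte markers, at 2101, 2049 and 1986 CPM, and for class II genes, at 22.2, 18.6 and 16.4 CPM. Endothelial and mural markers had 489, 480 and 489 CPM in ifKO, against 512, 485 and 494 CPM in control. Lymphocyte markers summed to at most 1.11 CPM in any library, also in control library 1, and none of the 8 passed the filter on low counts. The part of these cell types in the values of the 9 genes was not tested.

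**Figure D5:**
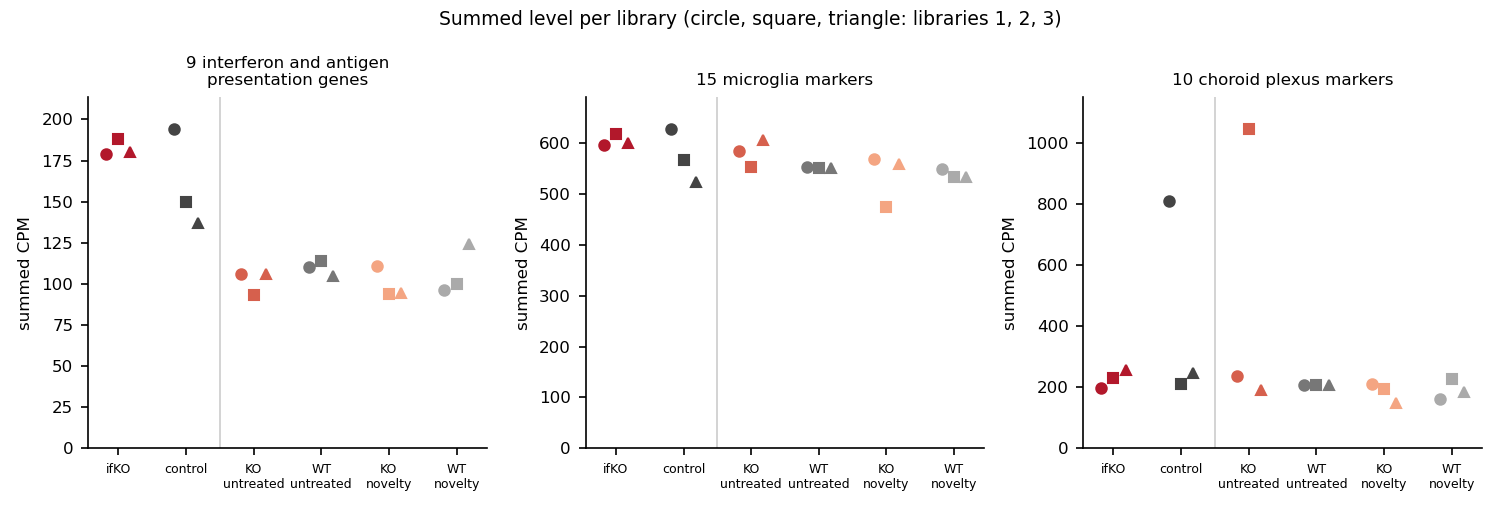
The panels give, for each library, the summed CPM of the 9 genes, of 15 microglia markers and of 10 choroid plexus markers, by group. Control library 1 is the highest control in all 3 panels, while untreated KO library 2, the highest for choroid plexus at 1046 CPM, is the lowest of its group for the 9 genes at 93.4 CPM.

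In untreated KO the microglia markers divided, with 9 of 15 positive and 6 negative. Siglech, a sialic acid-binding lectin of microglia, was higher by 0.60 ± 0.10 on the log2 scale (edgeR adjusted p = 0.00737). Fcrls, an Fc receptor-like protein, was higher by 0.43 ± 0.08 (adjusted p = 0.0182), and the other 13 did not pass. Among the negative markers, Tyrobp had -0.27 ± 0.10, C1qb -0.22 ± 0.09 and Cx3cr1 -0.20 ± 0.08 (edgeR adjusted p = 0.42, 0.484 and 0.448). The sum of all 15 was 585, 553 and 605 CPM in untreated KO, against 553, 551 and 551 CPM in untreated WT. The 9 genes had a median log2 fold change of -0.07 there. Of the markers of meningeal fibroblasts, Ogn, a small proteoglycan, fell by 1.29 ± 0.15 in ifKO (edgeR adjusted p = 0.001) and by 1.57 ± 0.35 in untreated KO (adjusted p = 0.0475), and the other 6 markers did not pass.

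All 9 genes stood higher in the inducible line than in the KO line. The ratio of the line means was above 1.5 for 9 of 9, from 1.51 for H2-K1 to 3.37 for Ifit3, as it was for 12% of all tested genes. Every library of the inducible line was above every library of the KO line for 4 genes, H2-D1, B2m, Ifit1 and Ifit3, and for 11.8% of all genes. In each of the 9, ifKO had the highest mean of the 6 groups and control the next. Within the KO line, none of the 9 genes passed the edgeR test in the 4 pairs of groups compared, which share either genotype or state, and the other pairs were not tested. The line is confounded with flowcell, read layout and strain, so these cannot be told apart, and no test was made. Alignments that were not unique also differed, at 16.2 to 17.6 per 100 counts in genes in the inducible line and 33.8 to 36.9 in the KO line. The part of this difference in the levels of the 9 genes was not tested.

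Per kilobase of the longest transcript, B2m was the most abundant of the 9 in every group, with a mean of 90.4 CPM per kb in ifKO, 81.8 in control, 54.4 in untreated KO and 57.2 in untreated WT. The heavy chains followed, H2-D1 with 18.9 CPM per kb in ifKO and 16.7 in control, and H2-K1 with 18.1 in ifKO and 15.9 in control. The lowest was Irf7, with 0.897 CPM per kb in ifKO, 0.719 in control, 0.344 in untreated KO and 0.516 in untreated WT.

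Novelty did not move the 9 genes past the test. In WT after novelty over untreated WT 4 of 9 were positive, the median was -0.05 and 0 passed the edgeR test, where 0.384% of all genes were called. That share is 63 genes, and it was 4 without WT novelty library 3, 5, 15 and 9 without WT untreated libraries 1, 2 and 3, and 102 without WT novelty library 1, with 0 of the 9 genes called each time. Ifit3 was the 1 gene with an unadjusted p under 0.05 in edgeR, at -0.44 ± 0.20 with an adjusted p of 0.429, and without WT novelty library 1 its value was -0.28. DESeq2 called 0 of 9 here, also with 0 under 0.05 unadjusted. No gene of the 9 had groups that stood apart, where 8.41% of all genes were wholly higher and 7.53% wholly lower after novelty in WT. In KO after novelty over untreated KO 4 of 9 were positive, the median was -0.03 and 0 passed, where 0.11% of all genes were called, and in edgeR and DESeq2 none was under 0.05 unadjusted. None had groups that stood apart, where 8.6% of all genes were wholly higher and 6.38% wholly lower after novelty in KO. The novelty effect in KO minus that in WT had a median of -0.06 over the 9 genes and 0 passed, with 0 under 0.05 unadjusted in either tool. No gene of all 16392 was called in that comparison, and 331 of 16556 were called without the pair of novelty libraries furthest from their groups, none of them among the 9. The comparisons after novelty and untreated share libraries with those between genotypes.

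The rest of the pathway was read from 72 further genes in 4 lists. Of these, 66 were tested in the inducible line and 62 in the KO line, and 0 passed the edgeR test in any of the 7 comparisons. In ifKO 50 of 66 were positive with a median of 0.12, and in untreated KO 21 of 62 were positive with a median of -0.07. Interferons themselves were hardly read: Ifnb1 had 1 count and Ifng 3 counts over all 18 libraries, and Ifna4 had none, which allows up to 0.0056 CPM (3 counts over all libraries, counting error only). These ligands were named after their values were seen. Of the receptors and signalling genes, Jak1, a kinase used by both kinds of interferon receptor, had 231 CPM in ifKO and 232 CPM in control, with a log2 fold change of 0.00 ± 0.03. Ifngr2, a chain of the interferon gamma receptor, had -0.00 ± 0.04, and 9 of the 14 genes of this list that were tested were positive in ifKO, with a median of 0.02.

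Of the other interferon-stimulated genes, 23 of 27 were positive in ifKO with a median of 0.21, and 7 of 23 in untreated KO with a median of -0.10. The most abundant of them, Ifi27 and Samhd1, a nucleotide hydrolase that limits viruses, had 0.04 ± 0.08 and -0.00 ± 0.05 in ifKO, and -0.03 ± 0.09 and -0.22 ± 0.07 in untreated KO (edgeR adjusted p = 0.971, 0.995, 0.964 and 0.225). Among 16 genes of class I and of peptide loading, 10 were positive in ifKO with a median of 0.07 and 3 in untreated KO with a median of -0.09. Calr and Pdia3, chaperones that help class I molecules fold, were the most abundant and had -0.01 ± 0.05 and -0.03 ± 0.04 in ifKO. Larger values in this list, named after they were seen, were those of other class I genes and of Nlrc5, a transactivator of class I genes. They were 0.62 ± 0.19 for H2-Q7, 0.50 ± 0.19 for H2-Q6, 0.49 ± 0.14 for H2-Q4 and 0.57 ± 0.15 for Nlrc5. The edgeR adjusted p were 0.368, 0.602, 0.323 and 0.223 in that order. H2-Q4 had 9.75 CPM in ifKO and 6.99 CPM in control, and Nlrc5 had 3.48 CPM in ifKO and 2.35 CPM in control. The groups of both stood apart, as those of 6.12% of all genes did in that direction, and those of H2-Q6 and H2-Q7 overlapped. Sensors of foreign nucleic acid were positive for 8 of 9 in ifKO with a median of 0.06. Tlr3, a receptor for double-stranded RNA, had 0.04 ± 0.06 there, and Mavs, the adaptor of the cytoplasmic RNA sensors, had -0.04 ± 0.10.

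Class II genes serve antigen presentation to helper T cells. Of 6 tested, 1 was positive in ifKO with a median of -0.20, and none in untreated KO with a median of -0.69. H2-DMa, which helps load peptide, had 12.5 CPM in ifKO and 13.1 CPM in control, a log2 fold change of -0.06 ± 0.07. Cd74, the invariant chain, had 1.32 CPM in ifKO and 1.73 CPM in control (-0.38 ± 0.27), and 1.95 CPM in untreated KO and 3.72 CPM in untreated WT (-0.94 ± 0.36). None passed the edgeR test, with adjusted p of 0.434 for Cd74 in untreated KO. The summed level of 5 markers of perivascular macrophages, cells that carry class II, was 7.05, 6.62 and 6.55 CPM in untreated KO, against 12.3, 9.06 and 7.35 CPM in untreated WT, and its part in the class II values was not tested.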

How the data were processed

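Counts per Ensembl gene, without normalization, were deposited by the authors for 18 libraries (24 sample records, since paired reads have 1 record each). The tools were DESeq2, HTSeq 0.6.1, SAMtools 1.3 and STAR 2.5.0c with build GRCm38, per the submitters' processing notes. The sources used here do not give the annotation release or strand setting. The extraction text speaks of cultures, the labels of tissue. Symbols came from GENCODE M21. TMM scaling, filterByExpr (minimum count 10, total 15) and quasi-likelihood tests came from edgeR 4.0.16 in R 4.3.3, with p-values adjusted by Benjamini-Hochberg over all genes tested and a threshold of 0.05. The inducible line was fitted on 6 libraries, the KO line on 12 and the difference on 18. Fold changes used a prior count of 0.125, the SE is the absolute fold change over the root of F, and log2 levels a pseudocount of 0.5. The 9 genes were named whatever their result. Of other lists, up to 4 called genes per direction were named, or the 2 of highest mean where none passed. Genes and lists were chosen with earlier results of these data known. On simulated counts for ifKO against control, the tests found 87% of 1.5-fold and 100% of 2-fold changes, and 2.6% of calls were false. For untreated KO the shares were 74%, 94% and 5.1%, and for the difference 48%, 87% and 6.2%. Recovery at the spread of the 9 genes themselves was not tested. Their spread was above the median of genes of like level for 9 in the inducible line and 7 in the KO line. Alternatives used DESeq2 1.42.0, RLE factors, other filters, the replicate block, other sets of libraries, and offsets for GC content and length fitted with mgcv 1.9.3. P-values measure the spread between pools of mice.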

Additional observations from a re-analysis of the deposited data

How the results depend on the processing

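Of 967 log2 fold changes recomputed under an alternative, 903 kept their sign and their side of the threshold, 61 changed sign (48 of them with 1 library left out) and 3 passed newly. Of the 9 genes, 1 passed in ifKO without the filter on low counts (398 of all genes), and 0 to 2 passed with 1 library left out (56 to 102 of all genes). The cause was not tested. Isg15 and Irf7 rest on the fewest counts of the 9 genes. Isg15 did not pass the stricter filter in the KO line, so it has no value there. Under DESeq2 Isg15 in untreated KO was -0.01. With the replicate number as a block it was -0.02, and H2-K1 after novelty in WT was -0.00. With GC and length offsets H2-D1 in KO against WT after novelty was -0.01, B2m after novelty in WT 0.03, H2-K1 after novelty in KO -0.01 and in the interaction -0.05. In the interaction H2-K1 was also -0.01 without a filter and -0.00 with the stricter filter. Without the pair of deviating novelty libraries, B2m was 0.03 and Oasl2 0.19 after novelty in WT, and Ifit3 was -0.06 and Irf7 0.02 after novelty in KO.

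With 1 library left out, Bst2 ranged from -0.07 to 0.39 in ifKO and from -0.12 to 0.32 in the difference between both mutants. In untreated KO, Ifit1 ranged from -0.16 to 0.11, Isg15 from -0.21 to 0.18, Bst2 from -0.08 to 0.20 and Oasl2 from -0.13 to 0.05. In KO against WT after novelty, H2-K1 ranged from -0.27 to 0.04, H2-D1 from -0.05 to 0.10, Ifit1 from -0.49 to 0.01, Irf7 from -0.55 to 0.08 and Oasl2 from -0.47 to 0.04. After novelty in WT, H2-K1 ranged from -0.18 to 0.13, B2m from -0.14 to 0.04, Isg15 from -0.24 to 0.30 and Oasl2 from -0.32 to 0.19. After novelty in KO, H2-K1 ranged from -0.11 to 0.07, H2-D1 from -0.01 to 0.13, Ifit3 from -0.09 to 0.20, Irf7 from -0.18 to 0.30 and Bst2 from -0.16 to 0.02. In the interaction, H2-K1 ranged from -0.13 to 0.18, B2m from -0.16 to 0.01, Ifit1 from -0.45 to 0.04, Irf7 from -0.01 to 0.62 and Oasl2 from -0.43 to 0.07.

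The labels do not say that replicate numbers pair the samples. Deviations of same-numbered libraries correlated at -0.10 to -0.02 between ifKO and control and at -0.14 to -0.05 between untreated KO and WT, with no sign of pairing. Between KO and WT after novelty they correlated at 0.06 to 0.24, and libraries of different number at -0.24 to 0.14, so pairing is not settled there. With the replicate block 0 of the 9 genes passed in any comparison, as without it. Over all genes the block gave 97 calls in ifKO against 112 without it, 173 against 204 in untreated KO, 202 against 219 after novelty, 33 against 63 for novelty in WT and 6 against 18 for novelty in KO. With no block and without the pair of deviating novelty libraries the calls were 415 in untreated KO, 705 in KO against WT after novelty, 451 for novelty in WT, 63 for novelty in KO and 331 in the interaction, with 0 of the 9 genes each time.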
